A study of Mus musculus with 16 samples.

Results

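Mitochondrial cristae and dynamics genes were examined in adipose tissue macrophages (ATMs), the macrophages resident in fat. The 10 genes, Ghitm, Immt, Chchd3, Samm50, Phb, Phb2, Opa1, Mfn1, Mfn2 and Dnm1l, were chosen by name from the 37310 gene rows of the count table, for their roles in cristae structure, as prohibitins, or in fusion and fission. F4/80+ ATMs had been sorted from epididymal fat pads of male mice that were 7 to 10 weeks old at the start of the experiment. All animals received a high-fat diet (HFD), for 4 weeks (short-term, ST-HFD) or 12 weeks (long-term, LT-HFD). WT mice were compared with IRF5-KO mice, in which floxed Irf5 is deleted by Cre under the LysM promoter, active in the myeloid lineage as a whole and not in ATMs alone. There were 4 libraries for each genotype and duration, 16 in all, with 3279332 to 4958131 counts per library. Levels are given as CPM, each count as a share of its library's TMM-scaled total, changes as the log2 of their ratio, and p-values are adjusted by Benjamini-Hochberg over all genes tested. In each library the 10 genes had 73 to 425 counts each, and all of them passed the filter on low counts in every comparison.

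Mitochondria fold their inner membrane into cristae, where the respiratory chain sits. The MICOS complex, which includes the products of Immt (MIC60) and Chchd3 (MIC19), shapes the crista junction and is tied to the outer membrane through SAMM50. GHITM (TMBIM5) is an inner membrane protein needed for normal cristae. The prohibitins PHB and PHB2 form ring-shaped scaffolds in the same membrane. The GTPase OPA1 fuses inner membranes and holds cristae tight, the mitofusins MFN1 and MFN2 fuse outer membranes, and the dynamin-related GTPase DRP1, encoded by Dnm1l, divides the organelle. IRF5 is a transcription factor of inflammatory macrophages, and the study asked whether it acts on mitochondrial architecture in ATMs during obesity.

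The promoters of the genes were read from RefSeq, on GRCm38.p6, as 300-base windows from 250 bases before each annotated start to 50 after it. The 10 genes had 15 windows, with a median GC content of 59.3% against 52.7% over all 32851 windows, and a median of 24 CpG dinucleotides against 7. The core of interferon regulatory factor sites, GAAA on either strand, was in 10 of the 15 windows, belonging to 8 genes, and in 89.2% of all windows. The full interferon-stimulated response element, which holds this core at both ends with 2 bases between, was in none of the 15 windows and in 3.44% of all windows. The site of the nuclear respiratory factor NRF1 was in the windows of Immt, Opa1 and Phb, against 4.60% of all windows. The GABPA/ETS site was in those of Mfn1 and Phb2, against 3.89%, and the YY1 site in none, against 0.633%. These are matches of letters only, and binding was not measured here. The stretches below belong to the gene most central to the study's question (Ghitm), to the gene that separated the durations in all libraries (Opa1), and to the prohibitin pair. Capitals mark GAAA on either strand in Ghitm, the NRF1 site in Opa1 and Phb, and the GABPA/ETS site in Phb2. The Ghitm stretch is the 250 bases before the most upstream of 3 annotated starts, at chr14:37135323-37135572 on the minus strand, and the Opa1 and Phb2 stretches lie at chr16:29579084-29579333 and chr6:124712039-124712288, both on the plus strand. The Phb stretch, 30 bases at chr11:95666977-95667006 on the plus strand, lies 20 to 49 bases after the start.
Ghitm: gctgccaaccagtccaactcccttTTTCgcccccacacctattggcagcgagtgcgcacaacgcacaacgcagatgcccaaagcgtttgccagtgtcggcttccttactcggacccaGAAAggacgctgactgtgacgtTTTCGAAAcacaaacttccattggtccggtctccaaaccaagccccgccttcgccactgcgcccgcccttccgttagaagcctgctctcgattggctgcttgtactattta
Opa1: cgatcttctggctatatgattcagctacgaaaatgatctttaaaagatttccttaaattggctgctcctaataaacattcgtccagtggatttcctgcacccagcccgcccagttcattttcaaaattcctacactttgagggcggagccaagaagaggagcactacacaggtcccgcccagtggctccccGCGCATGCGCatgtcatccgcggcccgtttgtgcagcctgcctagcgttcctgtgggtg
Phb2: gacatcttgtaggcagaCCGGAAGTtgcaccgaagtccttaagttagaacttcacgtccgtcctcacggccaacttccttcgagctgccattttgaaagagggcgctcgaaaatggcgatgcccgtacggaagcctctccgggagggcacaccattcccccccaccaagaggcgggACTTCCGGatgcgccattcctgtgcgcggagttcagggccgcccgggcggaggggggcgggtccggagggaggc
Phb: gagctgcctgGCGCACGCGCagtatccgga

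The targeted gene and the sort were checked first. Irf5 stood at 237.6 ± 23.2 CPM in WT and 262 ± 11.5 CPM in the libraries labelled IRF5-KO on ST-HFD, and at 193 ± 20.1 and 229 ± 26.5 CPM on LT-HFD (SD, n = 4 each). Neither duration had a lower Irf5 count under the IRF5-KO label, and the table holds no count by exon. Lyz2, the locus that carries the LysM-Cre, did fall in these libraries over both durations (-1.001 on the log2 scale, adjusted p = 2.79e-05). Macrophage markers were present in every library, with a summed level of 2629 to 4180 CPM over 6 genes, all detected. Genotypes and durations are given as labelled. Compared by eye, the study's own plot of Irf5 against Ghitm appears to give the LT-HFD symbol to libraries deposited as 4 weeks and the ST-HFD symbol to those deposited as 12 weeks. Every direction between durations given here follows the deposited labels.

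Per transcript length, the prohibitin Phb2 was the most abundant of the 10 genes and Mfn1 or Opa1 the least. On WT ST-HFD the levels per kilobase of the principal transcript were 38.3 ± 6.70 CPM per kb for Phb2, 27.9 ± 2.15 for Immt and 26.5 ± 3.11 for Chchd3 (SD, n = 4). A middle tier held Ghitm (16.4 ± 2.47 CPM per kb), Phb (15.7 ± 1.96) and Mfn2 (15.4 ± 0.48), and a lower tier Samm50 (11.1 ± 0.74), Dnm1l (10.2 ± 0.69), Opa1 (9.74 ± 1.21) and Mfn1 (6.25 ± 1.26). Immt and Chchd3 did not differ beyond their spread, nor did the 3 genes of the middle tier, and the ranges of Samm50, Dnm1l and Opa1 overlapped. The partners of the prohibitin ring were thus unequal at the transcript level, with 0.41 ± 0.03 Phb per Phb2 on WT ST-HFD, and 0.38 to 0.39 in the other 3 groups. Mfn1 stood at 0.41 ± 0.09 of Mfn2 on WT ST-HFD and at 0.50 ± 0.13 on WT LT-HFD, within the spread. The order depended on the length used. With the union of all annotated exons, Chchd3 (14.1 CPM per kb), Ghitm (13.9) and Phb2 (13.6) led on WT ST-HFD, Phb stood at 0.74 of Phb2, and Mfn1 remained lowest (4.66).

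**Figure D1:**
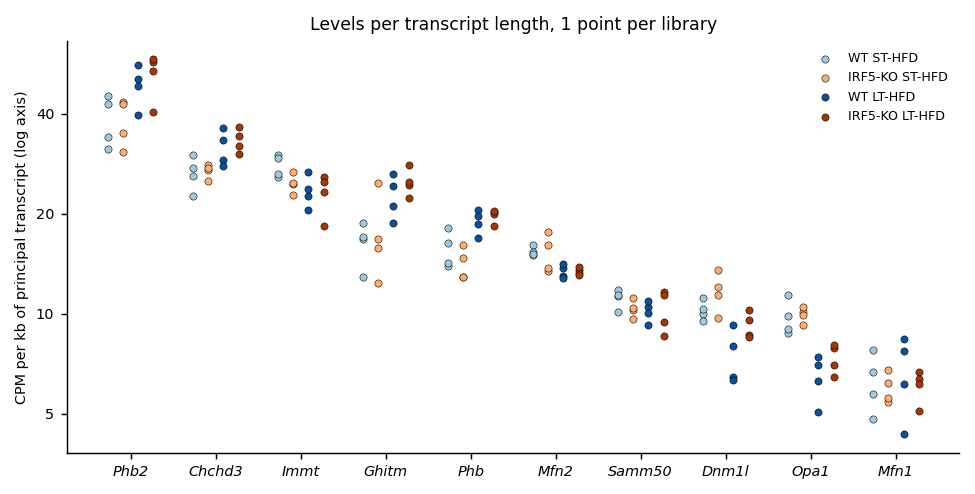
Levels of the 10 genes in CPM per kilobase of the principal transcript (log axis), with 1 point per library and 1 colour per group. Phb2 is highest, at 30.6 to 58.2 CPM per kb over the 16 libraries, and Mfn1 is at 4.34 to 8.40.

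The genotype comparison asks whether loss of IRF5 changes these genes. On ST-HFD edgeR's quasi-likelihood test gave none of the 10 genes an adjusted p under 0.05, against 0.00913% of the 10958 genes tested, and none had an unadjusted p under 0.05, by edgeR (1.84% of tested genes) or by DESeq2. With the replicate number as a block, none of the 10 passed either, and 2 genes of all tested did in place of 1. Ghitm was at 59.7, 53.4, 54.4 and 41.1 CPM in WT replicates 1 to 4 and at 78.8, 53.5, 50.4 and 39.4 CPM in the libraries labelled IRF5-KO. The range of the latter group enclosed the whole WT range, and the log2 fold change was 0.09 (95% confidence interval -0.34 to 0.52, adjusted p = 0.9998). Immt had the smallest p, with 70.3 to 82.1 CPM in WT and 62.1 to 72.8 CPM in the libraries labelled IRF5-KO (log2 fold change -0.19, unadjusted p = 0.0889, adjusted p = 0.9998). Over the 10 genes the median log2 fold change was -0.02, against 0.00 over all tested genes.

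On LT-HFD, too, none of the 10 genes passed in edgeR's test, against 0.0182% of 10987 tested genes, and none had an unadjusted p under 0.05 by edgeR (5.72% of tested genes) or by DESeq2, which gave no adjusted p for 7 of them. Ghitm was at 77.1, 67.1, 59.8 and 84.0 CPM in WT and 77.7, 89.5, 71.1 and 79.4 CPM in the libraries labelled IRF5-KO, or 0.14 on the log2 scale (95% confidence interval -0.15 to 0.43). Dnm1l came nearest, at 31.8, 25.5, 36.7 and 25.0 CPM in WT and 40.6, 34.2, 33.7 and 38.0 CPM in the libraries labelled IRF5-KO (log2 fold change 0.29, unadjusted p = 0.0875, adjusted p = 0.853). With both durations combined, 1 of the 10 genes, Dnm1l, had an unadjusted p under 0.05 by edgeR and by DESeq2, where 3.42% of tested genes did by edgeR. Its edgeR change was 0.24 on the log2 scale (adjusted p = 0.996). None of the 10 genes passed after adjustment by either tool, against 0.0173% of 11560 tested genes. The genotype groups of all 10 genes overlapped at both durations, while groups did not overlap for 1.47% (ST-HFD) and 3.01% (LT-HFD) of tested genes. The precision differed by gene: on LT-HFD the 95% confidence interval was -0.22 to 0.22 for Mfn2 and -0.57 to 0.30 for Mfn1, and an interval that holds 0 does not show that a gene is unchanged.

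**Figure D2:**
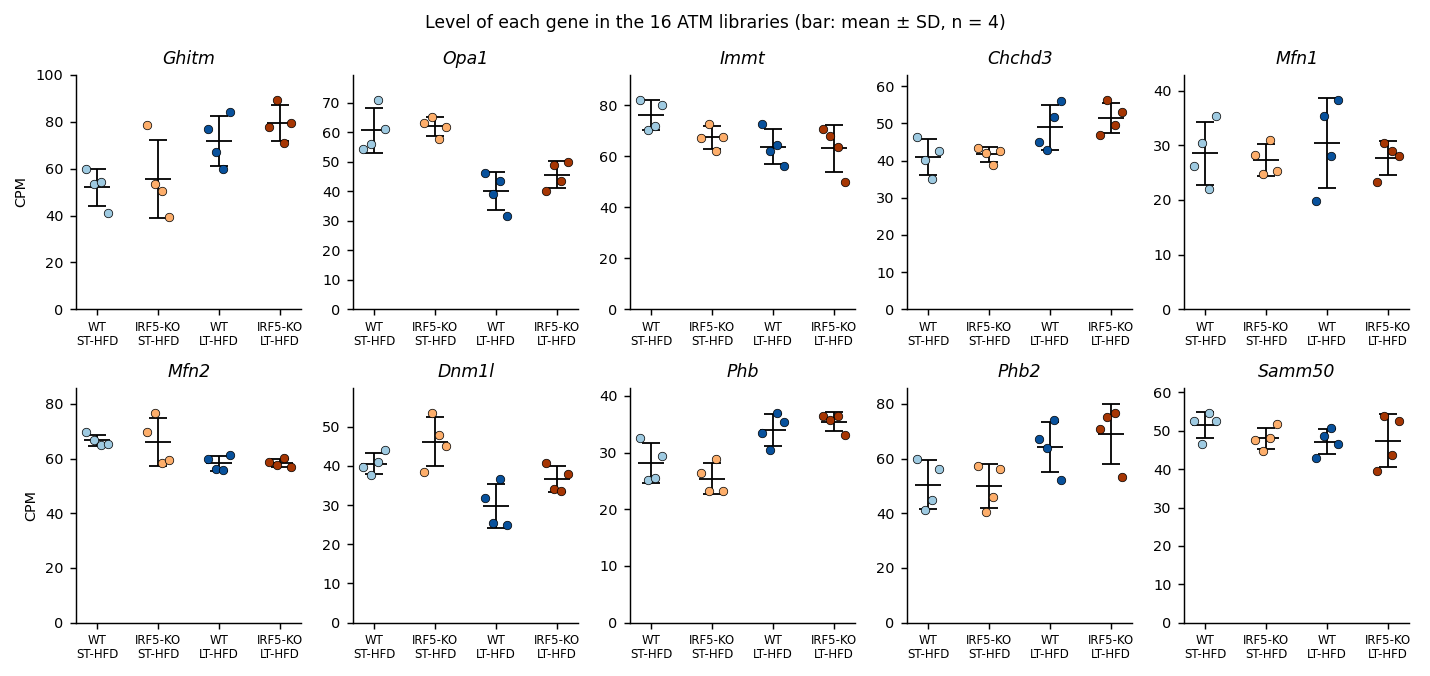
Level of each of the 10 genes in CPM, with 1 point per library and a bar for the mean ± SD of each group (n = 4). Genotypes overlap at both durations in every panel, while Opa1 separates ST-HFD (54.4 to 71.1 CPM) from LT-HFD (31.5 to 50.04 CPM) in all 16 libraries.

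The duration comparison asks how these genes differ between early and late HFD. Over both genotypes, 7 of the 10 genes passed an adjusted p under 0.05, where 43.6% of the 11560 tested genes did. Higher on LT-HFD were Ghitm, Chchd3, Phb and Phb2 (4 genes, against 22% of tested genes), and lower were Opa1, Dnm1l and Mfn2 (3 genes, against 21.6%). Immt (log2 fold change -0.17, adjusted p = 0.0919), Samm50 (-0.07, adjusted p = 0.464) and Mfn1 (0.05, adjusted p = 0.779) did not pass. The median over the 10 genes was -0.01, against 0.04 over all tested genes. In bulk RNA, fewer cells that express a gene and less RNA per cell cannot be told apart.

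Ghitm, the cristae gene of the inner membrane, rose from 53.8 ± 12.2 CPM on ST-HFD to 75.7 ± 9.46 CPM on LT-HFD (SD, n = 8), or 1.40-fold (log2 change 0.49, standard error 0.12, adjusted p = 0.00394). In WT the highest ST-HFD library (59.7 CPM) lay just under the lowest LT-HFD library (59.8 CPM), so the groups did not overlap. Yet the change within WT did not pass in the main fit of 16 libraries (log2 fold change 0.47, adjusted p = 0.0608). It passed in 1 of 7 alternatives that keep every WT library (adjusted p = 0.0353). Under the IRF5-KO label it passed (0.51, adjusted p = 0.0325), although replicate 1 on ST-HFD (78.8 CPM) lay within the LT-HFD range of 71.1 to 89.5 CPM. Without that library the change was 0.73 (adjusted p = 0.00179), and it no longer passed when any of 6 other libraries of that genotype was left out (largest adjusted p = 0.104). Over both genotypes it passed without each of the 16 libraries in turn, at 0.43 to 0.60.

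The MICOS genes did not move as one. Chchd3 was higher on LT-HFD, from 41.3 ± 3.43 to 50.2 ± 4.96 CPM (log2 fold change 0.28, standard error 0.08, adjusted p = 0.00888), while Immt went from 71.7 ± 6.70 to 63.4 ± 7.52 CPM without passing. In WT there were 1.06 ± 0.08 Immt per Chchd3 on ST-HFD and 0.75 ± 0.15 on LT-HFD, per kilobase, and the ranges did not overlap (0.995 to 1.17 against 0.568 to 0.917). In the libraries labelled IRF5-KO the ratio went from 0.92 ± 0.05 to 0.70 ± 0.13, again with no overlap. Between genotypes on ST-HFD the ratio was 0.995 to 1.17 in WT and 0.879 to 0.986 in the libraries labelled IRF5-KO, a narrow gap in 1 of 4 ratios examined, the other 3 overlapping. None of these ratios was tested. With union exons in place of the principal transcript, the WT ratio went from 0.48 to 0.34 with longer HFD, so its level depends on the length used. Samm50, the outer membrane partner, kept between 39.5 and 54.7 CPM in all 16 libraries, with every group overlapping every other.

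Both prohibitins rose. Phb was at 32.6, 25.1, 25.6 and 29.4 CPM on WT ST-HFD and 33.4, 30.4, 37.0 and 35.3 CPM on WT LT-HFD. In the libraries labelled IRF5-KO it was at 26.5, 23.2, 28.9 and 23.1 CPM on ST-HFD and 36.5, 35.8, 36.5 and 33.1 CPM on LT-HFD. The latter groups did not overlap, the WT groups did, and the change over both genotypes was 0.38 (standard error 0.08, adjusted p = 0.00147). Phb2 changed alike, by 0.40 (standard error 0.11, adjusted p = 0.00679), from 50.2 ± 7.88 to 66.6 ± 9.61 CPM, with overlap in both genotypes. Neither call held after the correction for transcript length described with the length trend, and the same was true of Chchd3 and Mfn2. The ratio of Phb to Phb2 stayed within its spread in every group.

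Opa1 fell in both genotypes. It was at 54.4, 56.0, 71.1 and 61.3 CPM on WT ST-HFD and 46.1, 39.1, 43.7 and 31.5 CPM on WT LT-HFD, which is -0.60 on the log2 scale (adjusted p = 0.00192, standard error 0.13). In the libraries labelled IRF5-KO it was at 63.2, 65.3, 57.8 and 61.8 CPM on ST-HFD and 40.1, 49.07, 43.5 and 50.04 CPM on LT-HFD, which is -0.44 (adjusted p = 0.0117, standard error 0.12). Over both genotypes it fell from 61.3 ± 5.40 to 42.9 ± 5.997 CPM (SD, n = 8; log2 change -0.52, adjusted p = 1.31e-04). Opa1 was the only one of the 10 genes with no overlap between the 8 ST-HFD and the 8 LT-HFD libraries, a separation seen in 15.3% of tested genes. Its change passed in each genotype without each library in turn. Per kilobase, Ghitm stood at 1.70 ± 0.37 times Opa1 on WT ST-HFD and at 3.62 ± 1.10 times on WT LT-HFD, and at 1.75 ± 0.50 and 3.41 ± 0.32 times in the libraries labelled IRF5-KO, with no overlap in either genotype.

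Of the other dynamics genes, Dnm1l, the fission GTPase, was lower on LT-HFD over both genotypes, from 43.4 ± 5.38 to 33.2 ± 5.61 CPM (log2 fold change -0.39, standard error 0.09, adjusted p = 0.00297). It was at 39.6, 37.6, 41.0 and 44.1 CPM on WT ST-HFD, all above the 31.8, 25.5, 36.7 and 25.0 CPM on WT LT-HFD. In the libraries labelled IRF5-KO the groups overlapped, with 38.5 to 53.5 CPM on ST-HFD and 33.7 to 40.6 CPM on LT-HFD (adjusted p = 0.0638). Mfn2 was lower by a small margin, from 66.4 ± 5.85 to 58.3 ± 2.00 CPM (log2 fold change -0.19, adjusted p = 0.0322), and lost the call without any of 6 of the 16 libraries. Mfn1, the other mitofusin, ranged from 19.8 to 38.3 CPM with wide overlap.

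Within WT alone, 2 of the 10 genes passed, Opa1 and Dnm1l, both lower on LT-HFD, where 25.3% of tested genes passed and 13.2% were lower. This count was 1 without WT ST-HFD replicate 4, WT LT-HFD replicate 2 or WT LT-HFD replicate 4, in each case Opa1. Among 7 alternatives that keep every WT library, Opa1 passed in 7 and Dnm1l in 5 (adjusted p up to 0.0678). Ghitm, which is higher on LT-HFD, and Immt passed in 1 each. Groups did not overlap for 4 genes, Ghitm, Opa1, Mfn2 and Dnm1l, against 26.1% of tested genes. Within the libraries labelled IRF5-KO, 5 genes passed, Ghitm, Chchd3, Phb and Phb2 higher and Opa1 lower, where 32.8% of tested genes passed, 15.6% higher and 17.2% lower. Their count was 2 or 3 without any 1 of 7 of the 8 libraries, ST-HFD replicate 1 being the exception, and Opa1 and Phb were called each time. No overlap was found for 3 genes, Opa1, Chchd3 and Phb, against 29.4%. The genotypes were not shown to differ in these changes: the interaction of genotype and duration passed for none of the 10 genes by edgeR or DESeq2, nor for any of 11560 tested genes by edgeR (0%), and at an unadjusted p under 0.05 for none of the 10, against 3.93% of tested genes. The interaction of Phb was the one with the smallest p (log2 difference 0.21, 95% confidence interval -0.14 to 0.56, unadjusted p = 0.232), and that of Ghitm was 0.05 (-0.48 to 0.57).

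**Figure D3:**
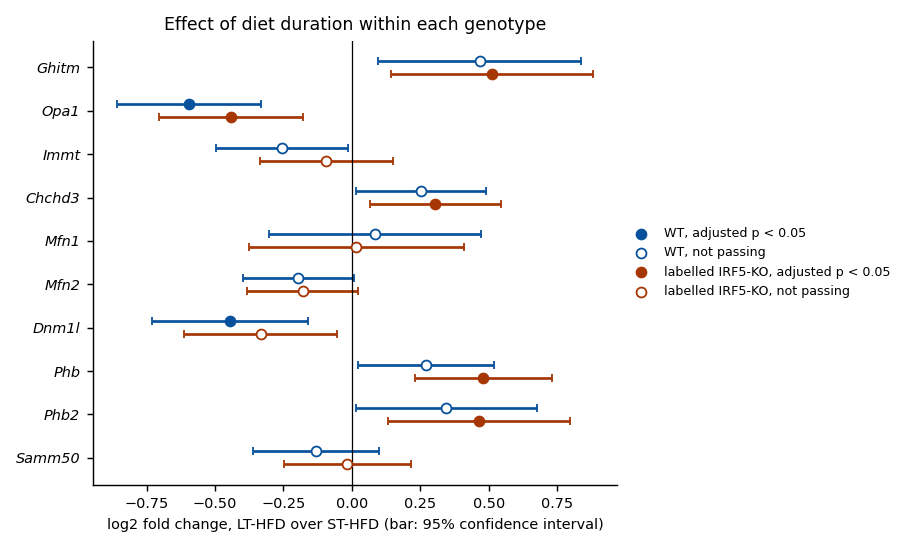
Log2 fold change of LT-HFD over ST-HFD for each gene (x axis) in WT and in the libraries labelled IRF5-KO, with 95% confidence intervals and filled points where the adjusted p is under 0.05. All 10 genes have the same sign in both genotypes, from -0.60 for Opa1 in WT to 0.51 for Ghitm in the libraries labelled IRF5-KO.

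Several properties of the libraries moved with duration beside these changes. Across 11011 genes with a length, log2 fold changes over both genotypes fell with transcript length (Spearman's rho -0.29 across genes, which are not independent replicates), from a median of 0.20 for genes of 311 to 1978 bases to -0.20 for those of 4589 bases or more. Phb2, Chchd3 and Phb are the shortest of the 10, at 1318, 1550 and 1799 bases, and Opa1 the longest, at 6230 bases. In a fit corrected in each library for transcript length and GC content, an alternative chosen after seeing the data, 4 of the 10 genes passed, where 39.6% of 11007 genes did. Ghitm (log2 fold change 0.38, adjusted p = 0.0205), Opa1 (-0.47, adjusted p = 7.97e-04) and Dnm1l (-0.49, adjusted p = 3.34e-04) kept their calls, and Immt gained one (-0.31, adjusted p = 0.00595). Phb (0.21, adjusted p = 0.0620), Phb2 (0.18, adjusted p = 0.213), Chchd3 (0.04, adjusted p = 0.735) and Mfn2 (-0.08, adjusted p = 0.355) did not pass. Within genotypes 3 genes passed after correction in WT, Opa1, Immt and Dnm1l (22% of tested genes), and Opa1 and Dnm1l did among the libraries labelled IRF5-KO (28.3%). In the fit over both genotypes, the other alternatives that keep all libraries and lack this correction kept the calls of Phb, Phb2 and Chchd3, while the call of Chchd3 within the libraries labelled IRF5-KO held in 1 of 7 alternatives (adjusted p up to 0.771). Whether the length trend has a technical source was not tested.

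**Figure D4:**
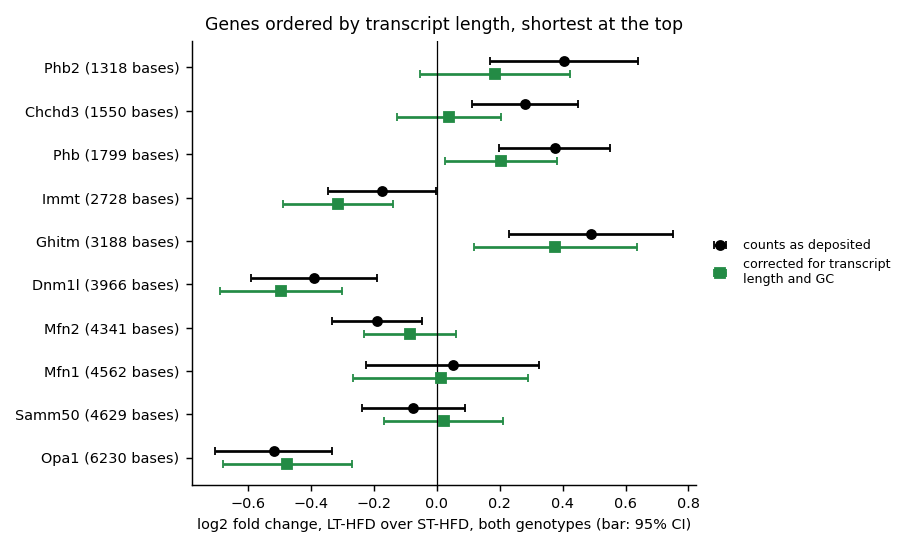
Log2 fold change of LT-HFD over ST-HFD over both genotypes (x axis, with 95% confidence intervals) before and after correction for transcript length and GC content, genes ordered by transcript length. The correction moves the 3 shortest genes toward 0, Phb2 from 0.40 to 0.18, while Opa1 goes from -0.52 to -0.47 and Dnm1l from -0.39 to -0.49.

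Markers of other cells also moved. The summed level of 5 fibroblast and preadipocyte markers, Pdgfra, Col1a1, Col3a1, Dcn and Lum, all detected, was 811 to 920 CPM on WT ST-HFD and 555 to 1333 CPM in the libraries labelled IRF5-KO, against 2420 to 7103 and 2478 to 5710 CPM on LT-HFD. The sum of 6 macrophage markers went from 3820 to 4180 CPM on ST-HFD to 2629 to 3314 CPM on LT-HFD, but its members did not move together: over both genotypes 4 were lower and 1 was higher. The higher one was Adgre1, which encodes the sort marker F4/80 (log2 fold change 0.33, adjusted p = 0.0159). In addition, 3 abundant features (mt-Rnr1, mt-Rnr2 and the microRNA entry mmu-mir-689-2) held 26.1% to 34.5% of counts on LT-HFD, against 18.6% to 24.1% on ST-HFD. Other marker sums overlapped between durations: adipocyte (5 genes) 4.34 to 38.3 CPM, endothelial (4) 10.8 to 77.0, mesothelial (4) 1.39 to 18.5, dendritic cell (4) 15.2 to 106 and neutrophil (4) 14.7 to 46.0 CPM, with Ly6g at 0 in every group. Single markers in these lists did pass between durations, all lower on LT-HFD: 1 of 4 adipocyte markers tested (adjusted p = 0.0307), 1 of 3 dendritic cell markers (adjusted p = 0.0458) and the 1 neutrophil marker tested (log2 fold change -0.64, adjusted p = 0.00404). In WT LT-HFD the 4 libraries had the same order by fibroblast sum and by Ghitm. From the highest they were replicate 4 (7103 and 84.0 CPM), 1 (2836 and 77.1), 2 (2657 and 67.1) and 3 (2420 and 59.8). Replicate 4 also had the lowest Opa1 (31.5 CPM) of its group. Among the LT-HFD libraries labelled IRF5-KO the order was otherwise: replicate 2 had the lowest fibroblast sum (2478 CPM) with the highest Ghitm (89.5 CPM), and replicate 1 the highest sum (5710 CPM) with Ghitm at 77.7 CPM. On ST-HFD the 2 orders differed in both genotypes, although replicate 4 labelled IRF5-KO had both the lowest sum (555 CPM) and the lowest Ghitm (39.4 CPM). Without WT LT-HFD replicate 4 the same 7 genes passed over both genotypes, with Ghitm at 0.45 (adjusted p = 0.00967). The part of these cells in the changes was not tested.

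Other genes of the same machinery, from lists that were written with earlier results known, are given by count for duration over both genotypes, where 43.6% of all tested genes passed (22% higher, 21.6% lower, with a median of 0.04), a share against which each small count should be read. Of 9 MICOS and bridging partners tested, 3 passed higher and 1 lower, with a median of 0.26: Micos10 (0.40; 2310028O11Rik in the table), Micos13 (0.42; 2410015M20Rik) and Mtx2 (0.54) rose and Dnajc11 (-0.36) fell. Micos10 and Dnajc11 kept their calls after the length and GC correction. Of 6 OPA1 processing proteases and scaffolds, 1 rose and 1 fell: Yme1l1 (0.42, adjusted p = 1.50e-04), a protease that cleaves OPA1, and Spg7 (-0.28, adjusted p = 0.00650), a subunit of the matrix-facing protease. Both kept their calls after correction, and the median of the list was 0.08. Among 3 tested fusion helpers none passed in either direction in edgeR's test, and none had an unadjusted p under 0.05. The smallest p belonged to Miga2 (-0.24, adjusted p = 0.150) and Slc25a46 (0.15, adjusted p = 0.252).

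Of 8 fission receptors and helpers tested, 4 passed, a share near that of all tested genes. There were 3 that rose, Fis1 (0.59, adjusted p = 3.47e-05), Mff (0.34, adjusted p = 0.00574) and Mtfr1 (0.61, adjusted p = 0.00272), and Inf2, a formin, fell (-1.04, adjusted p = 9.96e-04), with a list median of 0.32. FIS1 and MFF sit in the outer membrane, where MFF recruits DRP1. After correction Fis1, Mtfr1 and Inf2 kept their calls, Mff did not (0.12, adjusted p = 0.307), and Mief1, another DRP1 receptor, gained one (0.38, adjusted p = 0.0325). Of 8 cardiolipin genes only Ptpmt1 passed (0.38, adjusted p = 0.0148), with a list median of -0.05, and it had no length for the correction, after which Tamm41 was called lower (-0.48, adjusted p = 0.0367). Among the TMBIM family and GHITM partners, 4 of 7 rose and 1 fell, with a median of 0.23. Tmbim1 (0.41), Chchd2 (0.42), Tmbim6 (0.23) and Tmbim4 (0.32) rose, and Letm1, an inner membrane ion exchanger, fell (-0.54, adjusted p = 4.19e-04). After correction only Tmbim1 and Letm1 kept their calls, and the annotated transcript of Tmbim1 is unusually long (11011 bases). Of 5 mitophagy genes 3 rose, with a median of 0.46, the receptors Fundc1 (0.51), Bnip3l (0.46) and Bnip3 (0.53), of which Fundc1 and Bnip3l kept their calls. Of 15 mitochondrial content genes tested, 5 rose and 1 fell, again near the share of all genes, with a median of 0.07: the import receptors Tomm20 (0.64) and Tomm22 (0.45), the channels Vdac3 (0.38) and Vdac1 (0.29) and the mitochondrial DNA factor Tfam (0.41) rose, and the coactivator Ppargc1b fell (-1.61, adjusted p = 1.61e-04). After correction 1 was higher and 4 lower, Tfam and Ppargc1b keeping their calls and Timm44, Hspd1 and Nrf1 gaining one, while Tomm20 had no length to correct for.

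The 10 genes did not vary as a unit from library to library. Over the 16 libraries, 19 of their 45 pairs had a positive Pearson r of log2 CPM, with a median of -0.05. The highest were Opa1 with Dnm1l (0.80), Phb with Phb2 (0.77) and Chchd3 with Phb (0.76), and the lowest Opa1 with Phb (-0.77). With group means removed these were 0.40, 0.49, 0.43 and -0.35, and the median over pairs was -0.01. These values describe 16 libraries that share a normalization. Among the 7418 genes whose mean count reached 50, the 5 most like Ghitm over the 16 libraries were Ugp2 (r = 0.87), Pdlim5 (0.86), Igfbp7 (0.86), Prkcdbp (0.86) and Col6a1 (0.85). With group means removed their r was 0.66 to 0.77. The median gene had r = -0.07 over the 16 libraries, and 17.0% of genes exceeded 0.5. Between durations these 5 genes differed by 0.35, 0.17, 2.15, 1.80 and 1.82 on the log2 scale, in the same order. The first 2 rose by less than Ghitm (0.49). The last 3, including the collagen gene Col6a1, rose by more, as the 5 fibroblast and preadipocyte markers did (1.07 to 3.46). The part of fibroblasts in this likeness was not tested. Of the other 9 genes, the nearest to Ghitm were Chchd3 (r = 0.65, rank 506) and Phb (0.65, rank 507), and the farthest Dnm1l (-0.62, rank 6251). With group means removed, r with Ghitm was 0.20 for Chchd3 and 0.15 for Phb, and Mfn2 was the nearest of the 9 (0.53, against -0.28 without centring).

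The study's interest in Ghitm came from IRF5. It reported Ghitm as differing between genotypes in all of its conditions, cultured macrophages included, and as bound by IRF5 in published ChIP-seq of cultured macrophages. It added a negative correlation of Ghitm with Irf5 in ATMs of WT mice. The level of each gene was therefore set beside that of Irf5 over the 8 WT libraries. Pearson's r was -0.83 for Ghitm (unadjusted p = 0.0108, two-sided exact permutation test over 40320 pairings), 0.88 for Opa1 (p = 0.00506, exact) and 0.85 for Dnm1l (p = 0.0100, exact), with Spearman's rho of -0.86, 0.81 and 0.74 (exact p = 0.0107, 0.0218 and 0.0458). Chchd3 was the remaining gene with an unadjusted p of r under 0.05 (r = -0.73, exact p = 0.0386), so 4 of 10 genes had one, where 23.9% of 11559 tested genes did. None passed after Benjamini-Hochberg adjustment over all tested genes (adjusted p = 0.136 for Ghitm, 0.125 for Opa1 and 0.136 for Dnm1l, from exact permutation), and no tested gene did (0%). For rho the adjusted values were 0.343, 0.345 and 0.374 in the same order (exact permutation). Irf5 itself was lower on LT-HFD in WT (log2 fold change -0.30, adjusted p = 0.0485), so pooled values mix the 2 durations. Centred within duration, r was -0.60 for Ghitm, 0.68 for Opa1 and 0.61 for Dnm1l, the smallest p of the 10 genes was 0.108 (exact, permuting within duration), and none had a p under 0.05, against 5.14% of tested genes. With the 2 libraries most distant from the median Irf5 left out, r was -0.74 for Ghitm (exact p = 0.0847), 0.88 for Opa1 (exact p = 0.0278) and 0.85 for Dnm1l (exact p = 0.0375), so the relation of Ghitm no longer had a p under 0.05. Under the IRF5-KO label (8 libraries) the values of r were -0.60 for Ghitm, 0.60 for Opa1 and 0.33 for Dnm1l, given as a description, and the difference from WT was not tested.

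**Figure D5:**
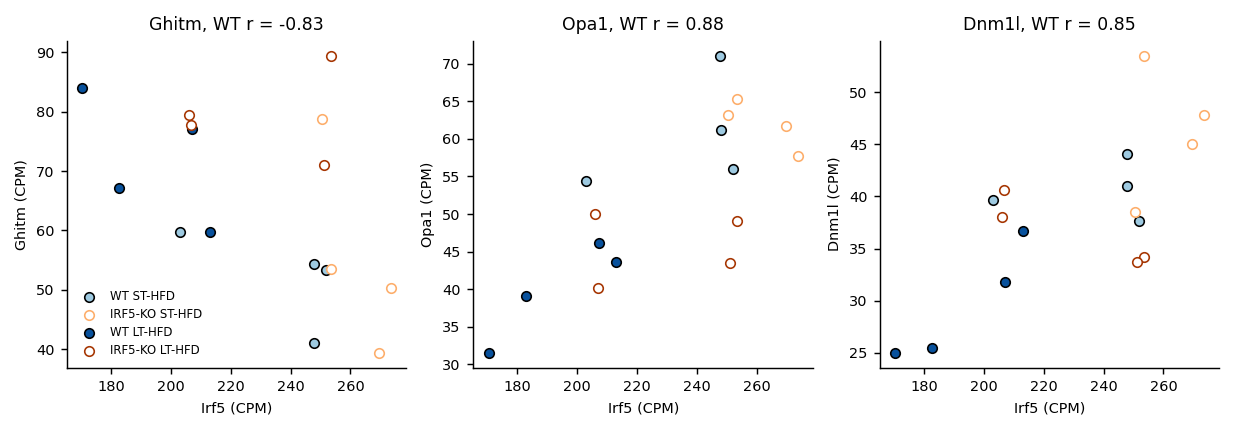
Level of Ghitm, Opa1 and Dnm1l against that of Irf5 (both axes in CPM), with filled points for the 8 WT libraries and open points for the 8 libraries labelled IRF5-KO. The WT points fall with Irf5 for Ghitm (r = -0.83) and climb with it for Opa1 (r = 0.88), and the libraries of the 2 durations take opposite ends of the Irf5 axis with some overlap.

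Annotation sets a limit on a few values. In GENCODE M21 the exons of Phb2 overlap Gm23547 on its own strand and Gm15884 on the other, those of Samm50 overlap Gm49513 on its own strand, and those of Immt and Dnm1l overlap Gm44771 and Gm49521 on the opposite strand. As the strand setting of the counting is not given in the sources used here, reads of these pairs cannot be told apart. Ghitm (chromosome 14, 37120092 to 37135272), Opa1 (chromosome 16, 29579334 to 29654884), Phb (chromosome 11, 95666957 to 95680773), Chchd3, Mfn1 and Mfn2 had no such overlap on GRCm38.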

How the data were processed

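RNA was made into libraries with the SMARTer stranded total RNA Pico kit with ribosomal depletion. Per the labels and the study's methods, the authors trimmed reads with fastp 0.19.11, aligned them with STAR 2.7.3a and deposited raw counts per gene. The submitters' notes name mm10 and mm9, the methods mm10, and the annotation release and strand setting are not given in the sources used here. Counts were scaled by TMM, filtered with filterByExpr and tested in edgeR 4.0.16 (R 4.3.3) by quasi-likelihood, within each duration for genotype, as 8 libraries, and over 16 libraries for duration and the interaction, with an adjusted p under 0.05 as the threshold. DESeq2 1.42.0 was an alternative. Totals of 3279332 to 4958131 counts set the precision. P-values measure the spread between libraries. No library pair was a duplicate.

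The members and lists were chosen with earlier results of these data known. Named genes were the 10 members, list genes that passed the duration test (where none did, the 2 with the smallest p), the 5 genes most like Ghitm, and Irf5, Lyz2 and Adgre1 as checks. Mief1, Tamm41, Timm44, Hspd1 and Nrf1, called only after the length correction, were named after their values were seen. Same-numbered WT and IRF5-KO libraries on ST-HFD deviated together (correlations 0.18 to 0.49), and those of other comparisons did not all do so. Differently numbered libraries on ST-HFD had correlations of -0.52 to 0.48, so the numbers are not shown to mark pairs. Tests were checked on simulated counts. Correlations with Irf5 were first planned with adjustment over the 10 genes and are adjusted here over all tested genes. Lengths are from GENCODE M21 on GRCm38 and promoters from RefSeq. Of the listed genes, 102 matched by symbol, 3 by an older symbol and 8 by gene ID. The result of 1 marker list is not reported here.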

Additional observations from a re-analysis of the deposited data

How the results depend on the processing

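Of the member values under alternatives that keep every library, 461 kept their direction and side of the threshold, 23 lost and 5 gained a call, and 11 changed sign, all of these near 0. The length and GC correction was chosen after seeing the data. With it, 2 of the 10 genes passed for duration in the libraries labelled IRF5-KO in place of 5, and 4 over both genotypes in place of 7 (also 4 together with a replicate block). Within a genotype, the replicate block was fitted over that genotype's 8 libraries. With it, 1 of the 10 genes passed for duration in WT, against 2 in the same 8 libraries without the block and 2 in the main result. In the libraries labelled IRF5-KO 2 passed, against 4 and 5, and genes called of all tested were 2349, against 3360 and 3787. Replicate numbers did not pair the libraries across durations, and no other count of members moved by over 1.5 times. Equal counts need not hold the same genes: over 7 alternatives for duration in WT, Opa1 passed in 7, Dnm1l in 5 and Ghitm in 1. Genes called for genotype on ST-HFD went from 1 to 2 without the filter, by DESeq2, with 16 libraries and with the replicate block, and on LT-HFD from 2 to 6 without the filter, 7 by DESeq2, and 0 with the correction or the block. The cause was not tested.

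Changed signs were as follows. For genotype on LT-HFD, Mfn2 went to 0.0046 without the filter, 0.0012 with the correction and 0.0030 with 16 libraries, and Samm50 to -0.0037 with the replicate block. With the correction, Opa1 was -0.011 and Phb2 0.019 for genotype on ST-HFD, and for duration Mfn1 was -0.020 and Samm50 0.097 in the libraries labelled IRF5-KO, and Samm50 0.022 over both genotypes. With the block and correction together, Mfn1 was -0.0018 and Samm50 0.019.

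Leaving out 1 library at a time gave these ranges where a sign or count moved. Genotype on ST-HFD ranged from -0.14 to 0.22 for Ghitm, -0.019 to 0.11 for Opa1, -0.055 to 0.085 for Chchd3, -0.17 to 0.057 for Mfn1, -0.094 to 0.042 for Mfn2 and -0.12 to 0.074 for Phb2. Genotype on LT-HFD ranged from -0.083 to 0.074 for Immt, -0.018 to 0.027 for Mfn2 and -0.070 to 0.090 for Samm50, with 0 to 2 genes called of all tested. Genotype over both durations ranged from -0.044 to 0.023 for Mfn2 and -0.00078 to 0.096 for Phb2. The interaction ranged from -0.093 to 0.26 for Ghitm, -0.022 to 0.12 for Chchd3, -0.23 to 0.069 for Mfn1 and -0.039 to 0.095 for Mfn2. Duration ranged for Mfn1 from -0.052 to 0.24 in WT, -0.034 to 0.091 in the libraries labelled IRF5-KO and -0.018 to 0.13 over both, and in the libraries labelled IRF5-KO from -0.15 to 0.00044 for Immt and -0.088 to 0.061 for Samm50. Members called were 1 to 3 in WT and 2 to 5 in the libraries labelled IRF5-KO. The 10 genes had 73 to 425 counts per library, and the smallest change that could be detected was not estimated.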
